A study of Homo sapiens with 2 samples.

Results

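The genes of 4 surface molecules by which adult T-cell leukaemia cells are recognised, IL2RA, CCR4, CCR7 and CADM1, were examined for TP73 antibody enrichment. Peaks were assigned to a gene when their summit lay in or within 20 kb of its hg19 span. This gave 21 peaks of the 18908 in the authors' list: 5 at IL2RA, 0 at CCR4, 8 at CCR7 and 8 at CADM1. Tiles of the genome as long as each window held at least 1 summit in 32.5% of cases for IL2RA, 18.9% for CCR4, 21.5% for CCR7 and 66.8% for CADM1. The assignment of peaks to a gene used position only, not peak height. The genes themselves were chosen with earlier results of these data known. The peaks come from TL-Om1, a single established line of leukaemic human T cells from adult T-cell leukaemia, and no expression was measured, so the surface molecules themselves could not be checked. The series holds 1 ChIP library made with an antibody against TP73 and 1 input library of whole cell extract, both from cells cross-linked with formaldehyde for 10 min. The labels give no genotype change or treatment for either library. With 1 library in each group, no value below has a replicate error and no test between conditions was possible.

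TP73 is a transcription factor of the p53 family, whose members bind DNA as tetramers at elements built from repeats of a decamer, the p53-family half-site. Adult T-cell leukaemia arises from CD4+ T cells infected with the retrovirus HTLV-1. IL2RA, also called CD25, is the alpha chain that gives the interleukin-2 receptor its high affinity. CCR4 is a chemokine receptor for CCL17 and CCL22 and the target of the antibody mogamulizumab. CCR7 is the receptor for CCL19 and CCL21, which guide T cells into lymph nodes. CADM1, first known as the tumour suppressor TSLC1, is an adhesion molecule of the immunoglobulin superfamily and marks infected cells in flow cytometry.

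Promoter sequences are shown for IL2RA, a gene with peaks inside its span, and CCR4, a gene with no peak, to set the presence of a p53-family half-site at the gene start beside the presence of peaks. RefSeq promoters of the GRCh38.p14 build run from 250 bases before to 50 bases after the gene start, and 2 of the 4 genes were matched. The IL2RA promoter is chr10:6062318-6062617 on the minus strand, and the CCR4 promoter is chr3:32951394-32951693 on the plus strand. Both are written 5′ to 3′ along the gene, and capitals mark a p53-family half-site.
IL2RA: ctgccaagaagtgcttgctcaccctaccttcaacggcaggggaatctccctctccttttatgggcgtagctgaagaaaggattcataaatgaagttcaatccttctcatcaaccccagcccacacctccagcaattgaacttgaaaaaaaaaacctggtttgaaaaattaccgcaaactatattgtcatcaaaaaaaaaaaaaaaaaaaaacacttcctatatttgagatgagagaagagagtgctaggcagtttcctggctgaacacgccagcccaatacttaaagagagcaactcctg
CCR4: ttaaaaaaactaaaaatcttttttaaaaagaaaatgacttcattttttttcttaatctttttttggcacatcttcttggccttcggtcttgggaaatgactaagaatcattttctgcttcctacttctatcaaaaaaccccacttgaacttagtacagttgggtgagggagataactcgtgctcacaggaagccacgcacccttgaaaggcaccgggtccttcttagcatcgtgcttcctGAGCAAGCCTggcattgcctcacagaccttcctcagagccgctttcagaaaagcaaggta
The IL2RA window held 0 half-sites. The CCR4 window held 1, GAGCAAGCCT, at bases 241 to 250 of the window, just before the gene start. The half-site pattern reads the same on both strands, and 6.63% of the 35116 RefSeq promoters held at least 1. The promoter with a half-site belonged to the gene without a peak. The promoter without one belonged to IL2RA, whose 5 peaks were counted over a window of 93 kb. The IL2RA summits nearest the gene start were 2.2 kb inside and 9.6 kb upstream, farther away than these 300 bases reach. A link between half-sites and peaks was not tested. A match of letters is a description, not a binding site. The peaks are on hg19 and were not laid over these GRCh38.p14 windows.

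With 20 kb added on each side, CCR7 carried the strongest TP73 enrichment of these genes. Inside the gene spans the highest fold was 33.2 at IL2RA, against 22.6 at CCR7 and 17.1 at CADM1. The hg19 span of CCR7, rounded to 1 kb, is chromosome 17 from 38710000 to 38722000. CCR7 is read from the higher to the lower coordinate. Of its 8 peaks, 3 lay inside the gene, 3 past its end and 2 upstream of its start. The fold enrichment is the authors' ratio of ChIP pileup to control background at the summit. The 3 peaks past the gene end had the highest folds of the locus. Their summits lay 18.05, 22.7 and 27.6 kb from the gene start, in a gene of 12 kb. The nearest, at 38703686 to 38704217, had a fold of 64.4 (−log10 q-value 331). The middle one, at 38698935 to 38699622, had a fold of 65.0 (−log10 q-value 335). This was the strongest peak in any of the 4 windows, rank 177 by fold in the whole list and rank 11 on chromosome 17. The farthest, at 38694193 to 38694658, had a fold of 59.6 (−log10 q-value 299).

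The remaining strong CCR7 peak lay on the other side of the gene, 16.7 kb upstream of the start at 38738523 to 38739019. Its fold was 53.3 and its −log10 q-value 259. The second upstream peak, 12.2 kb from the start at 38734059 to 38734346, was weaker, with a fold of 16.0. Inside CCR7 the folds were lower than at the 4 strong peaks. The peak whose summit lay 2.2 kb inside the gene, at 38719628 to 38720216, had a fold of 22.6. The next, 3.7 kb inside at 38718033 to 38718456, had a fold of 13.2, and the last, 4.6 kb inside at 38717256 to 38717702, had a fold of 8.88. The 5 peaks outside the gene had a median fold of 59.6 and the 3 inside a median of 13.2, and the ranges overlapped, since the weaker upstream peak lay below the highest peak inside. Which gene, if any, the peaks outside CCR7 act on was not tested. The neighbouring protein-coding genes in the RefSeq order are TNS4 past the CCR7 end and SMARCE1 upstream.

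The number of ChIP reads at a summit was solved from the deposited fold and p-value, and intervals are exact 95% Poisson intervals that cover counting error only. The CCR7 peaks past the gene end had 224 reads (interval 196 to 255), 226 (197 to 257) and 207 (180 to 237), in order of distance from the gene. The strong upstream peak had 185 reads (159 to 214). The intervals of these 4 overlap, and their order was not tested. All 4 lay above the interval of the strongest peak inside the gene, which had 78 reads (61.7 to 97.3). The weaker upstream peak had 55 reads, and the other peaks inside had 45 and 30. The control background was 2.41 reads per 142 bp at all 8 summits. This is the genome-wide level that the peak caller uses as its lowest background. Differences in fold within CCR7 thus come from the ChIP reads alone. The same level applied to 69.9% of the peaks on chromosome 17.

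**Figure D1:**
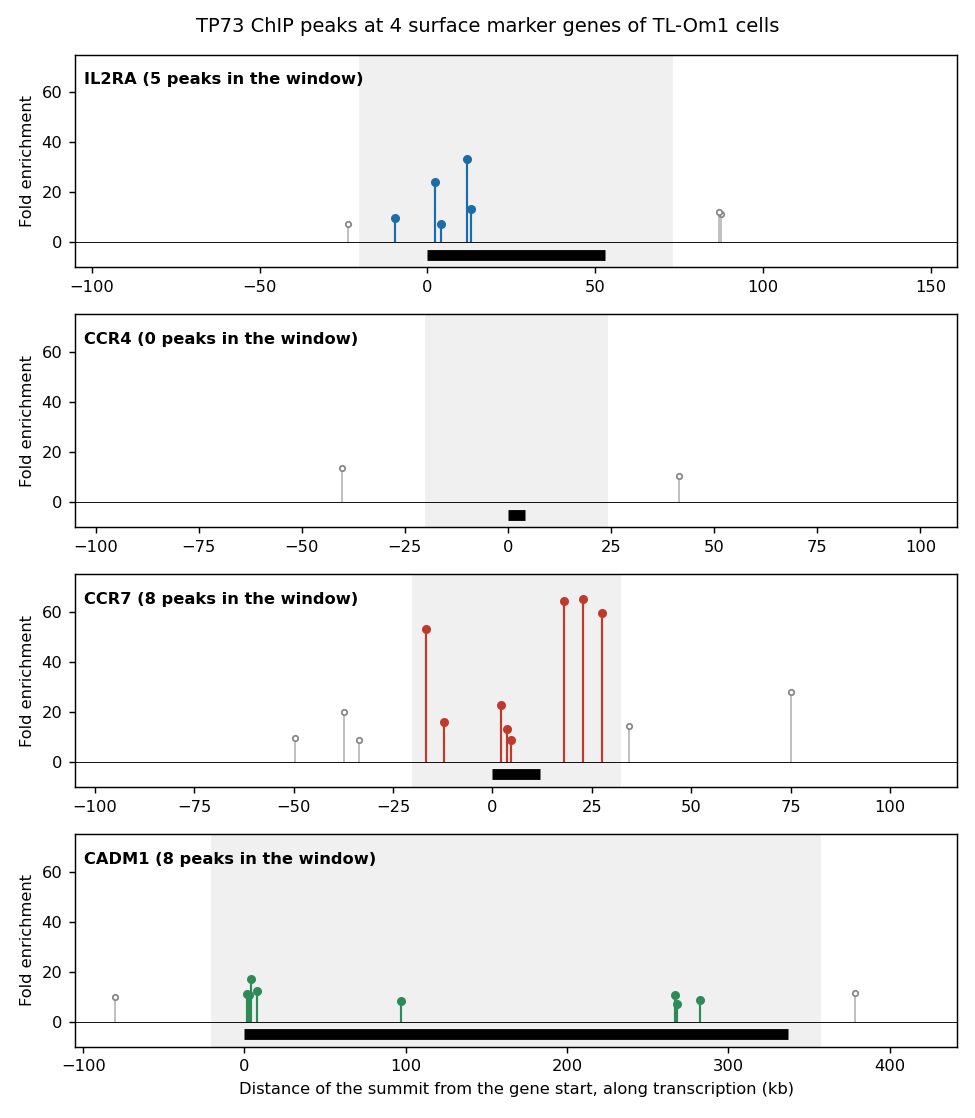
Fold enrichment (vertical axis, a ratio to control) against the distance of each summit from the gene start along the direction of transcription (horizontal axis, kb) for 4 genes. Black bars are gene spans, grey areas the windows with 20 kb added, filled points the 21 peaks counted and open points other peaks within 100 kb. CCR7 has 4 peaks above a fold of 50, all outside the gene, whereas CCR4 has none in its window.

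The grouping of strong peaks at CCR7 had no equal in the list. A fold of at least 50 was reached by 4 of the 8 CCR7 peaks, against 3.54% of all peaks (669 of 18908). Their 4 summits lay within 44.4 kb. No other place held 4 peaks of that fold within 44.4 kb, and none did within 100 kb either. With the limit lowered to a fold of 40 the CCR7 group was still the only one. At a fold of at least 30 there were 4 groups, the others on chromosomes 1, 14 and 19. The limits were set from the CCR7 values themselves, so these counts describe the locus and test nothing.

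The number of summits was compared with tiles of equal length laid over chromosomes 1 to 22 and X, gaps and gene-poor regions included. Of 56571 tiles of 52 kb, 21.5% held at least 1 summit, and 0.0354% (20 tiles, the one over CCR7 included) held 8 or more, as the CCR7 window did. At least 1 summit of fold 50 or more was found in 1.14% of these tiles. At least 4 such summits were found in 0.00177%, which is 1 tile, the one over CCR7. The limits of 8 summits, and of 4 summits at a fold of 50, were set from the CCR7 values themselves. These shares therefore describe the locus and test nothing. The density of the CCR7 window was 154 summits per Mb (exact 95% Poisson interval 66.4 to 303), against 11.2 per Mb over chromosome 17. Summits cluster and genes are unevenly spread, so the interval is too narrow as a measure of chance.

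**Figure D2:**
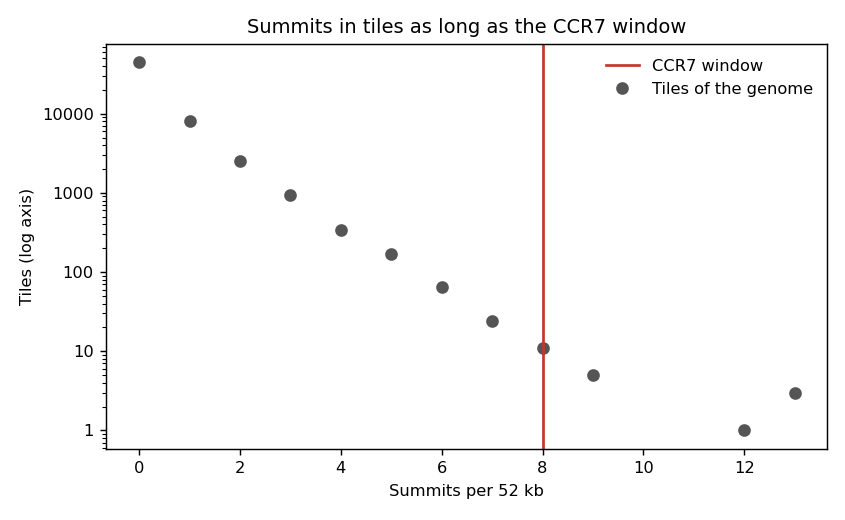
Number of tiles of 52 kb (vertical log axis) that hold a given number of TP73 summits (horizontal axis). The red line marks the 8 summits of the CCR7 window, which 20 of 56571 tiles reach or pass.

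IL2RA carried 5 peaks, of which 4 lay in the part of the gene nearest its start. The span is chromosome 10 from 6052000 to 6105000, and the gene is read from the higher to the lower coordinate. The strongest peak, at 6092885 to 6093407 with its summit 11.8 kb inside the gene, had a fold of 33.2, a −log10 q-value of 138 and 115 ChIP reads (interval 94.9 to 138). A second peak, at 6102680 to 6103036 with its summit 2.2 kb inside, had a fold of 24.1, a −log10 q-value of 87.2 and 83 reads (66.1 to 103). These intervals overlap, and the difference between the 2 peaks was not tested. Each had a weaker neighbour. At 6092005 to 6092257, 1.04 kb from the first summit, the fold was 13.2 with 45 reads. At 6100780 to 6100940, 1.95 kb from the second, the fold was 7.17 with 24 reads, the lowest of the 21 peaks.

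The fifth IL2RA peak lay 9.6 kb upstream of the gene start at 6114467 to 6114879, with a fold of 9.74 and 33 reads. From 12.9 kb inside the gene to its far end at 53 kb no summit was called. All 5 summits were scored against the genome-wide background of 2.41 control reads, which applied to 68.75% of the peaks on chromosome 10. Tiles of 93 kb, the length of this window, held at least 1 summit in 32.5% of cases and 5 or more in 1.63%. The density was 53.8 summits per Mb (interval 17.5 to 125), against 5.93 over chromosome 10. By fold, the strongest peak ranked 1929 in the whole list and 87 on chromosome 10. The 5 folds had a median of 13.2, against 11.3 over the list.

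**Figure D3:**
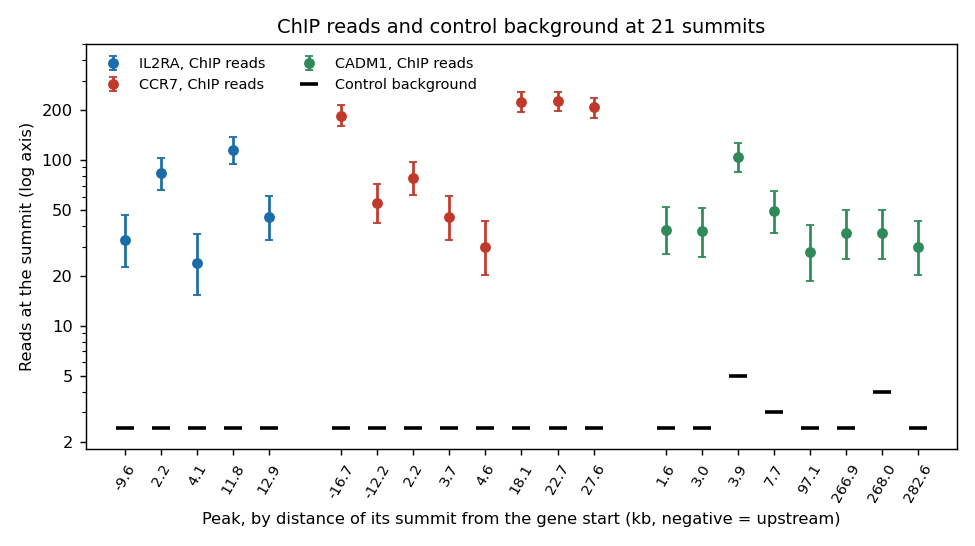
ChIP reads (points, with exact 95% Poisson intervals for counting error) and control background (black dashes, reads per 142 bp) at the 21 summits on a vertical log axis, ordered within each gene by distance from its start. The 4 strong CCR7 peaks have 185 to 226 reads over 2.41, and 3 CADM1 peaks have a raised control of 3, 4 and 5 reads.

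CADM1 carried 8 peaks, all inside its span of 337 kb, with folds from 7.22 to 17.1. The span is chromosome 11 from 115039000 to 115376000, and the gene is read from the higher to the lower coordinate. In the first 10 kb of the gene, a limit set after their positions were seen, lay 4 of them. Their summits were 1.6, 3.0, 3.9 and 7.7 kb from the start. The peak at 115371874 to 115372248, 3.9 kb from the start, was the strongest, with a fold of 17.1, a −log10 q-value of 89.1 and 104 ChIP reads (interval 85.0 to 126). The other 3 were weaker. The peak 7.7 kb from the start, at 115368133 to 115368488, had a fold of 12.2 and 49 reads. The peak nearest the start, at 115374376 to 115374564, had a fold of 11.2 and 38 reads. The remaining one, at 115372836 to 115373160, had a fold of 10.9 and 37 reads.

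The other 4 CADM1 peaks were spread over the body of the gene. The peak at 115278854 to 115278998, 97.1 kb from the start, had a fold of 8.31 and 28 reads. Toward the gene end, 3 peaks lay 266.9, 268.0 and 282.6 kb from the start with folds of 10.6, 7.22 and 8.88. Between the peaks at 97.1 and 266.9 kb a stretch of 169.7 kb held no summit. Such a gap is not rare, since 22.5% of neighbouring summits on the autosomes were at least as far apart. The 4 peaks of the first 10 kb had a median of 43.5 reads and the other 4 a median of 33, and every peak of the first group was above the highest of the second, 36 reads. The counting intervals of the 3 weaker peaks near the start, with 37 to 49 reads, overlap those of the peaks in the gene body. The difference was not tested.

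The genome-wide background applied to 5 of the 8 CADM1 summits (62.5%), against 52.7% on chromosome 11 and 51.9% over the whole list. At the other 3 the background was higher: 5 reads at the strongest peak, 3 at the peak 7.7 kb from the start and 4 at the peak 268.0 kb from the start. With 36 ChIP reads each, the peak over 4 control reads had a fold of 7.22 and its neighbour over 2.41 had a fold of 10.6. The fold of the strongest CADM1 peak is likewise lowered by its control. By reads it came close to the strongest IL2RA peak, 104 against 115 with overlapping intervals, while its fold was 17.1 against 33.2. Tiles of 377 kb held at least 1 summit in 66.8% of cases and 8 or more in 7.34%. The density, 21.2 summits per Mb (interval 9.16 to 41.8), compares with 6.96 over chromosome 11.

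CCR4 had no peak in its window. Its span is chromosome 3 from 32993000 to 32997000, and it is read from the lower to the higher coordinate. The nearest summits were 40.3 kb upstream of the start, in the peak at 32952579 to 32952768, and 37.5 kb past the end, in the peak at 33034238 to 33034723. These peaks had folds of 13.4 and 10.3 and 46 and 35 ChIP reads. The interval between them, 81.8 kb, is no longer than 38.2% of the distances between neighbouring summits on the autosomes. Tiles of 44 kb held a summit in 18.9% of cases, so a window of this length without one is the usual state. For a count of 0 in 44 kb the exact 95% Poisson interval ends at 83.8 summits per Mb. This is above the densities of the IL2RA and CADM1 windows and below the 154 of the CCR7 window. Summits cluster, so the interval is too narrow as a measure of chance. Whether the density at CCR4 differs from that at the other genes was not tested. Enrichment that the peak caller did not call would not appear in the list. The fewest ChIP reads of any called peak were 18. This is not a fixed limit, since the p-value also depends on the control background.

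**Figure D4:**
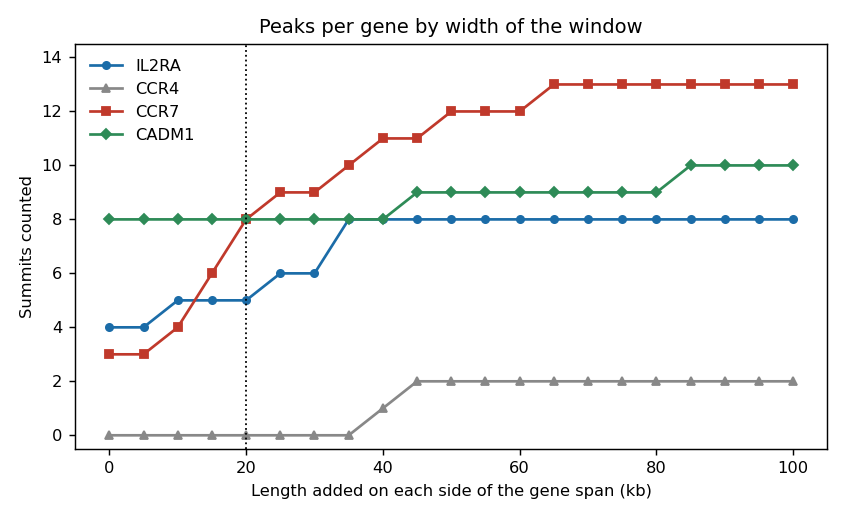
Number of TP73 summits (vertical axis) counted for each gene as the length added on each side of its span grows (horizontal axis, kb). The dotted line marks 20 kb, where the counts are 5 for IL2RA, 0 for CCR4, 8 for CCR7 and 8 for CADM1. CCR4 stays at 0 up to 35 kb, and all 8 CADM1 summits are counted with 0 kb added.

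Set beside the whole list, the 21 peaks were a little above it in fold, and this rested on CCR7. Their median fold was 13.2 (range 7.17 to 65.0), against 11.3 (range 1.62 to 81.6) for all 18908 peaks. Without the 8 CCR7 peaks the median of the other 13 was 10.9. A fold of at least 10 was reached by 15 of the 21 peaks, where 59.8% of all peaks reached it. A fold of at least 20 was reached by 7, which are 5 at CCR7 and 2 at IL2RA, where 23.0% of all peaks reached it. The median was 45 ChIP reads, against 43 for the list, and the median width 357 bp, against 255 bp. The genome-wide background applied to 18 of the 21 summits (all 5 at IL2RA, all 8 at CCR7 and 5 of 8 at CADM1), against 51.9% of the list. That share varied by chromosome, with 68.75% on chromosome 10 (IL2RA), 69.9% on chromosome 17 (CCR7) and 52.7% on chromosome 11 (CADM1). Over the 4 windows together, 566 kb, the density was 37.1 summits per Mb (interval 23.0 to 56.7), against 6.65 over the 22 autosomes, which include long stretches without genes. These peaks share 1 library and neighbours share a locus, so none of these differences was tested.

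**Figure D5:**
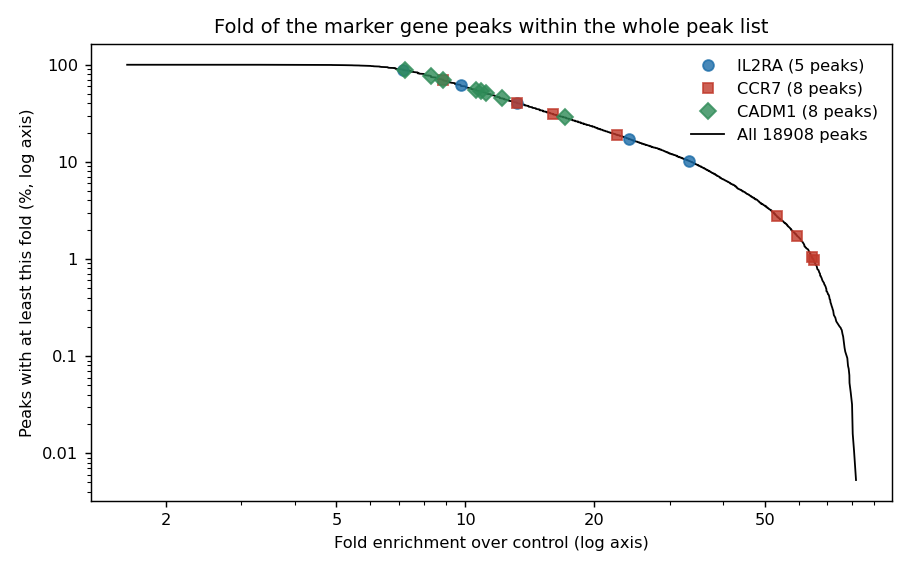
Percentage of all 18908 peaks with at least a given fold (vertical log axis) against fold enrichment (horizontal log axis). Coloured points place the peaks of IL2RA, CCR7 and CADM1 on the curve of the whole list. The strongest CCR7 peak, with a fold of 65.0, is reached by 0.973% of peaks, and the CADM1 peaks lie between 28.7% and 87.8%.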

How the data were processed

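The values come from the peak list of the TP73 ChIP library of TL-Om1 cells, sequenced as single-end reads; the series holds 2 libraries in all, this one and the input. The submitters' processing notes list Bowtie2, SAMtools, MACS2 and hg19; no parameters were found in the labels. The deposited columns used are the fold (a ratio to control) and the −log10 of the p-value and q-value; the deposited score was not used. The labels name whole cell extract as control, whereas all 18908 deposited peak names contain IgG, so which control was used is not settled.

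Summits were the deposited start plus the summit distance, and printed positions count from 1. Gene spans are rounded to 1 kb, so distances from gene starts carry that error. The direction of CCR7 and CADM1 is textbook knowledge. Exons and introns were not assigned, and sequence under the peaks was not used here. ChIP reads were solved from fold = (pileup + 1) / (background + 1) and the Poisson p-value, 1 read being 0.975 units of pileup; all 18908 peaks were matched by a whole number of reads within a relative 1e-05 of the p-value. Read totals are not in the peak list. Reads without molecular identifiers are not independent molecules.

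The genes, and the comparisons with tiles and runs of strong peaks, were chosen with earlier results of these data known. The text names all 4 genes, all their peaks and the nearest summit outside each window; other T-cell surface molecules planned for the same description need an hg19 gene table and were not analysed here. The software was scipy 1.17.1, numpy 2.4.6, pandas 2.3.3 and matplotlib 3.10.9 under Python 3.11.15.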

Additional observations from a re-analysis of the deposited data

How the results depend on the processing

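The 21 peaks stayed at 21 with a −log10 q-value of at least 10, a fold of at least 5, or any overlap with the window, and were 20 with peaks closer than 500 bp merged. They were 15 with 0 kb added to the gene spans, 17 with 10 kb, 31 with 50 kb and 33 with 100 kb, and 15 with a fold of at least 10. A −log10 q-value of at least 30 left 12, and at least 50 ChIP reads (chosen after seeing the data) left 9 (2 at IL2RA, 6 at CCR7, 1 at CADM1). For comparison, the whole list had a median −log10 q-value of 30.4 and a median of 43 ChIP reads. A fold of at least 10 was reached by 59.8% of it. CCR7 had 3 peaks at 0 kb, 4 at 10 kb and 13 at 100 kb against 8, and IL2RA had 8 at 50 and 100 kb against 5. CCR4 had 0 peaks except with 50 or 100 kb added, where it had 2. The median fold of 13.2 was 11.2 with 0 kb added and 10.9 without CCR7 (added after seeing the data), both below the 11.3 of the list; as reads the median was 45. The density of 37.1 summits per Mb ranged from 25.3 without CCR7 to 36.9 with 0 kb added, with 27.4 at 100 kb and 35.3 after merging, and was 37.1 with a −log10 q-value of at least 10. No replicate exists to leave out. No paired analysis was possible because each group holds a single library.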

Other observations

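Between 20 and 100 kb from the gene spans lay 12 further peaks, among them the 2 flanking CCR4. CCR7 had 5 of them. Past its end, one at 38687346 to 38687906 had a fold of 14.3, with its summit 22.3 kb from the gene, just beyond the window, and one at 38646696 to 38647031 a fold of 28.1. Upstream of CCR7 the folds were 8.88, 20.1 and 9.61, so none of these outer peaks reached the folds of the 4 strong ones. IL2RA had a close pair past its end, on the side of IL15RA, another cytokine receptor chain, with folds of 11.2 and 12.0, and 1 upstream peak with a fold of 7.45. CADM1 had 1 peak on each side, 41.7 kb past the end with a fold of 11.5 and 80.3 kb upstream with a fold of 9.74.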
